A study of Mus musculus with 3 samples.

Results

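This account concerns 8 mouse genes: the receptor chains through which cells sense interferon-γ (IFNγ), interleukin-1 (Il-1) and tumour necrosis factor (TNF), together with the decoy receptor and the soluble antagonist of Il-1. The genes are Ifngr1, Ifngr2, Il1r1, Il1rap, Il1r2, Il1rn, Tnfrsf1a and Tnfrsf1b. They were chosen by what they encode, as the receptors and antagonists of the cytokines applied to the islets, and not by any measured value. Earlier results of these data were, however, known when they were chosen. Each was given every region enriched for monomethylated lysine 4 of histone H3 (H3K4me1) that overlapped the gene or lay within 20 kb of any of its transcription start sites (TSS). This gave 36 regions, no region being shared by 2 genes, out of 65709 in the deposited list. The 8 genes are among 22350 protein-coding genes on chromosomes 1 to 19 and X to which the same rule was applied.

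Islets are the endocrine cell clusters of the pancreas. Those studied came from CD1 mice aged 8 to 12 weeks, per the labels, and were cultured for 4 days with a mixture of TNFα at 0.16 ng/ml, Il-1β at 0.25 ng/ml and IFNγ at 1.6 ng/ml. The labels name no transgene or mutation, and the cytokines were not applied singly. DNA from several ChIP experiments on islets of several mice was pooled for 1 library, so every value here is a single value without replicate error and no difference could be tested. H3K4me1 of untreated islets and the RNA-seq of this study were not analysed here, so nothing below says whether a region arose, grew or shrank with the treatment, or whether a gene was transcribed.

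IFNγ binds Ifngr1, and Ifngr2 joins the complex to start signalling through the kinases Jak1 and Jak2. Il-1α and Il-1β bind Il1r1, which signals only once Il1rap is recruited. Il1r2 binds Il-1 but has no signalling domain and so acts as a decoy, and Il1rn is a secreted protein that occupies Il1r1 without activating it. TNF binds Tnfrsf1a, which carries a death domain, and Tnfrsf1b, which lacks one and recruits Traf2. Both the Il-1 and the TNF receptors lead to NF-κB and AP-1, and β-cells are known to respond to these cytokines in combination. H3K4me1 is known mainly from enhancers and from the flanks of promoters, whether or not the gene is being transcribed.

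The DNA just before the start sites is shown for 4 of the genes because these 4 pair high and low CpG content with the presence and absence of a region. Each sequence holds the 200 bases upstream of the first TSS in the NCBIM37 (mm9) reference genome, 5′ to 3′ on the strand of the gene, which is the plus strand in all 4, with every CpG dinucleotide in capitals. The Il1rap sequence (chr16:26581590-26581789, 26 CpG) and the Ifngr2 sequence (chr16:91547117-91547316, 24 CpG) are CpG-rich. The Il1r1 sequence (chr1:40281725-40281924, 3 CpG) and the Il1rn sequence (chr2:24192173-24192372, 1 CpG) are CpG-poor. All 200 bases lay in an enriched region at Il1rap and at Il1r1, and 0 bases did at Ifngr2 and at Il1rn.
Il1rap: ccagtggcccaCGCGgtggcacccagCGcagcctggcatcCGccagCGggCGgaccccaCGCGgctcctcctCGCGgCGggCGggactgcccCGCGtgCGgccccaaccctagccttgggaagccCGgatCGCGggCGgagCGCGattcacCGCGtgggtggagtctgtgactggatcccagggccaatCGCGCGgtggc
Ifngr2: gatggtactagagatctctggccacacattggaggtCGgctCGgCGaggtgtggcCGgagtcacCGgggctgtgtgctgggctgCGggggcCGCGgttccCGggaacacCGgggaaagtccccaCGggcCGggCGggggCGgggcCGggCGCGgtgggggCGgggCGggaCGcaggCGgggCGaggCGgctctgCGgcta
Il1r1: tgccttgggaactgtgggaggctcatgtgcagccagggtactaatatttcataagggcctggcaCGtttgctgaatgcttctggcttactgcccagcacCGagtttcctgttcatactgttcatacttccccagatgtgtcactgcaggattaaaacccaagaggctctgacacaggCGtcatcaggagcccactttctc
Il1rn: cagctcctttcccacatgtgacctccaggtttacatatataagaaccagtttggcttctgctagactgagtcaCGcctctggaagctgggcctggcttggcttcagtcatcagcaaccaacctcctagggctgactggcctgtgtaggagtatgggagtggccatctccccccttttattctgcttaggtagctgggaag

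Enriched regions were present at all the genes, and they were spread very unevenly among them. Of the 8 genes, 8 had at least 1 region, beside 76.4% of all protein-coding genes. Il1r1 had 12 regions, Ifngr2 had 8, Il1r2 and Tnfrsf1a had 4 each, Il1rap and Il1rn had 3 each, and Ifngr1 and Tnfrsf1b had 1 each. The median was 3.5 regions per gene, beside a median of 2 (quartiles 1 and 4) over all protein-coding genes, and 6 of the 8 lay above that median. A long gene can hold more regions, so the covered share of each locus, the gene joined with 20 kb on either side of each TSS, was also taken. Its median over the 8 genes was 11.6%, beside 6.5% (quartiles 0.713% and 16.1%) over all protein-coding genes, and again 6 of the 8 lay above the median. In order of the covered share, Il1r1 stood at 61.1%, Tnfrsf1a at 27.5%, Ifngr2 at 18.1%, Il1r2 at 14.6%, Il1rn at 8.66%, Ifngr1 at 7.04%, Tnfrsf1b at 3% and Il1rap at 2.27%. With 1 library there is no spread by which neighbours in this order could be told apart. Both orders depend on the gene body: within 20 kb of the first TSS alone, Il1r1 had 2 regions and Ifngr2 had 6, although the covered share of Il1r1 was still the highest, at 62%, and that of Il1r2 was 5.03%.

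**Figure D1:**
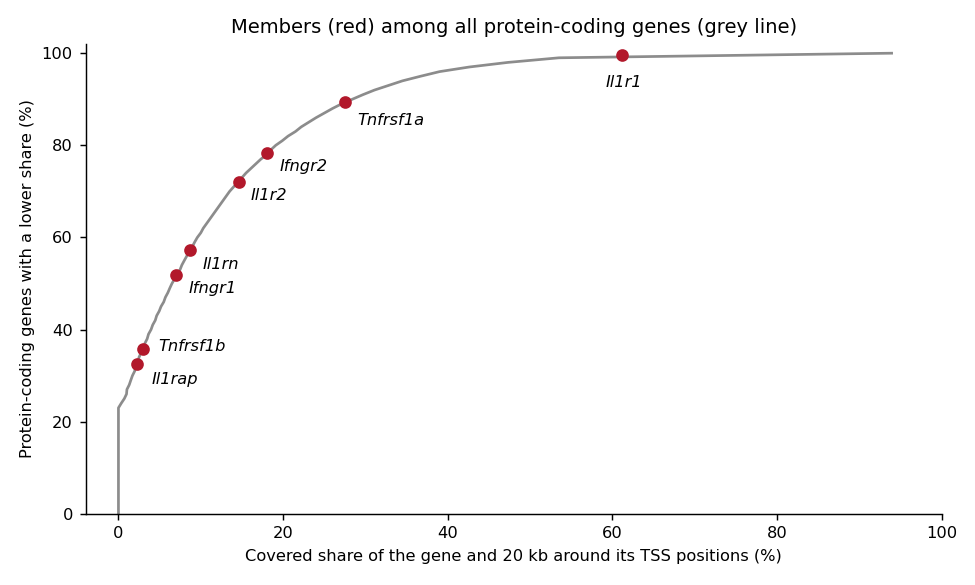
Covered share of each locus on the x axis (percent of the gene and 20 kb around its TSS positions) against the percent of protein-coding genes with a lower share on the y axis, with the 8 genes as red points and all 22350 protein-coding genes as the grey line. Il1r1 stands at 61.1%, far to the right of the other members, and Il1rap at 2.27% and Tnfrsf1b at 3% lie below the median of all genes.

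**Figure D2:**
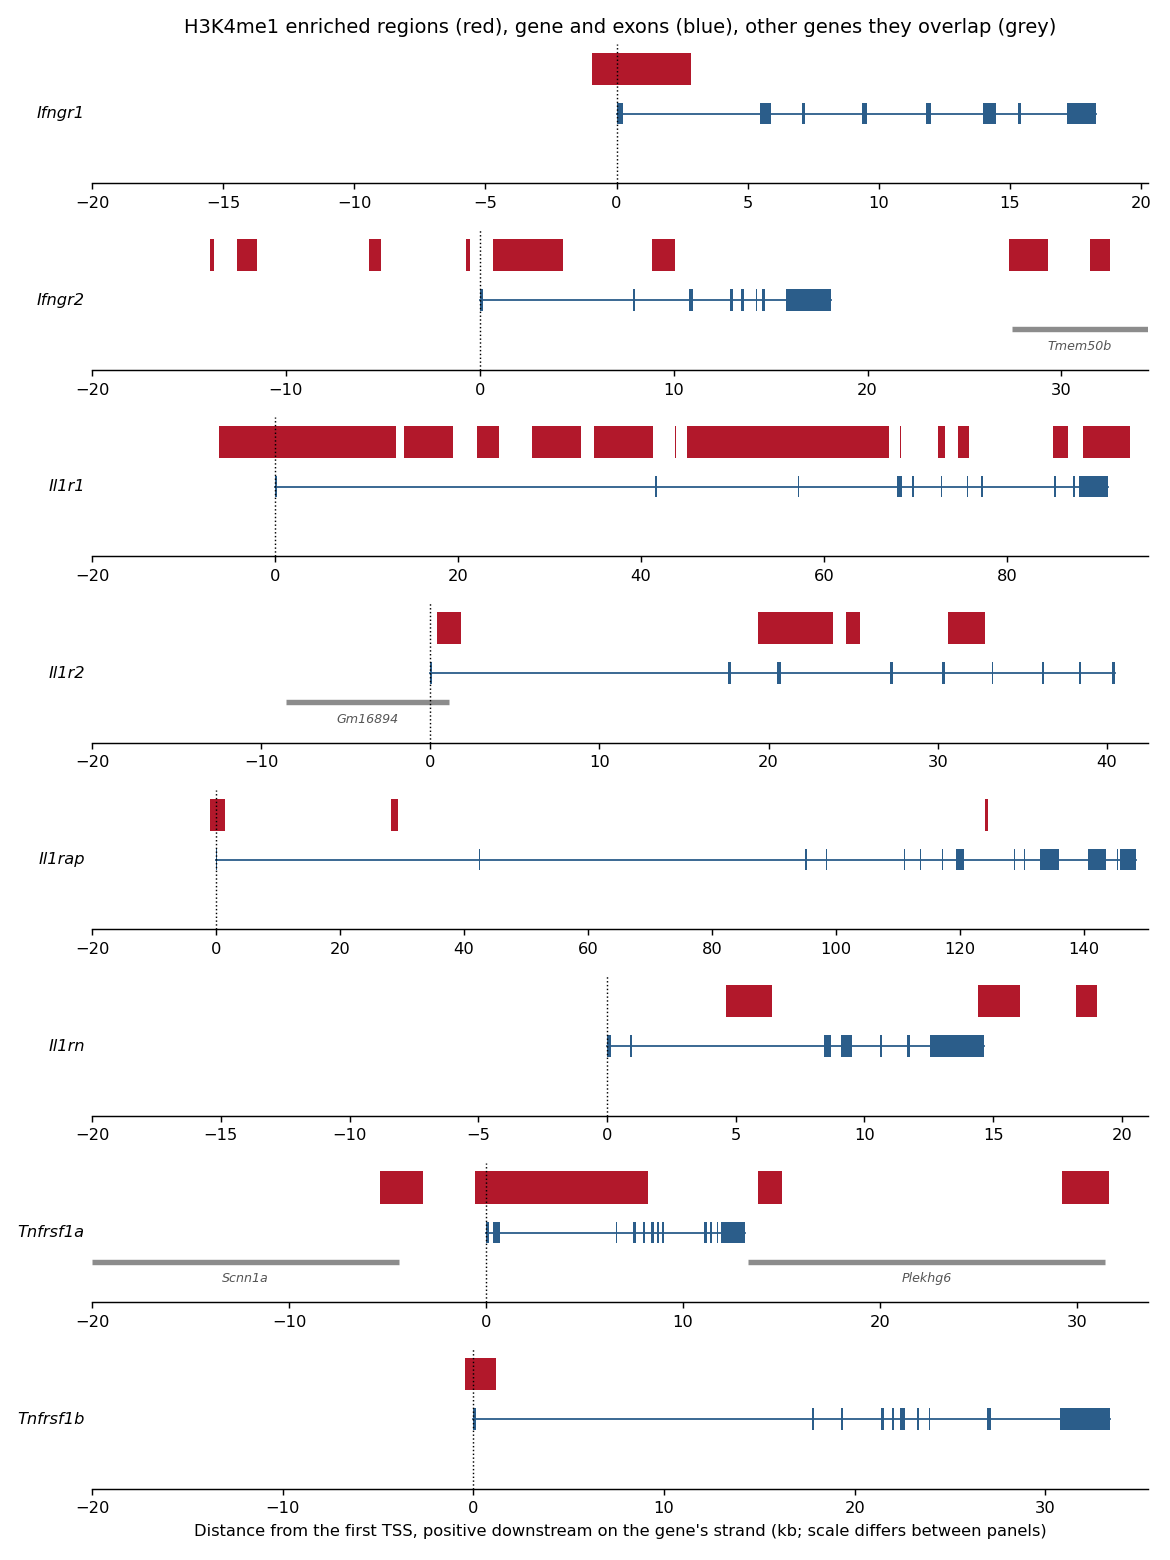
Maps of the 8 loci, with distance from the first TSS in kb on the x axis of each panel and the direction of transcription to the right. Red boxes are enriched regions, blue lines and boxes are the gene and all its annotated exons, grey bars are other genes that a region overlaps, and the dotted line is the first TSS. The 12 regions of Il1r1 cover 70.5% of the 99.6 kb they span, with gaps of up to 9.2 kb, whereas Ifngr1 and Tnfrsf1b carry 1 region each, over the start site.

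Most of the genes had enrichment at or next to the start site. The first TSS lay inside a region at 5 of the 8 genes (62.5%), namely Ifngr1, Il1r1, Il1rap, Tnfrsf1a and Tnfrsf1b, beside 31.1% of all protein-coding genes. Counting any annotated TSS named the same 5 of 8, beside 39.1% of all protein-coding genes. A region lay within 1 kb of the first TSS at 7 of 8 (87.5%), beside 50.8%. The additional genes were Il1r2, whose nearest region began 388 bp downstream, and Ifngr2, whose nearest region ended 517 bp upstream. Il1rn was the exception, with its nearest region 4628 bp downstream of the first TSS. The Il1rn transcript with the longest coding sequence starts 8457 bp after the first TSS, and its start lies 2030 bp from the nearest region. The upstream sequence, CpG ratio and promoter motifs given for Il1rn are those of its first TSS.

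**Figure D3:**
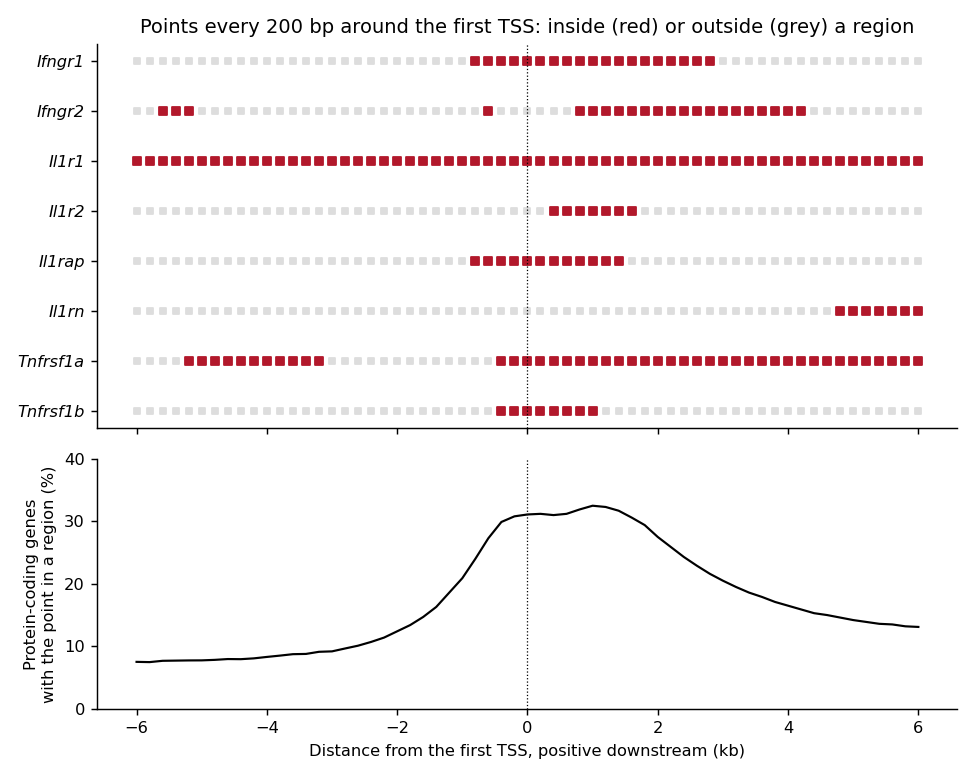
Upper part: points every 200 bp up to 6 kb on either side of the first TSS of each gene, red where the point lay in an enriched region and grey where it did not. Lower part: percent of protein-coding genes with the point in a region on the y axis, which stood at 31.1% at the TSS and was highest, at 32.5%, 1000 bp downstream. Il1r1 is covered across the whole window, Ifngr2 has a gap at the TSS with regions on both sides, and Il1rn is uncovered until 4628 bp downstream.

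The chains of the IFNγ receptor differed in layout. Ifngr1, the ligand-binding chain (chromosome 10, 19311755 to 19330035, plus strand), had 1 region of 3.8 kb, from -954 to 2845 bp relative to the first TSS (negative values lie upstream). This region took in exon 1 and the beginning of intron 1 and covered 5 of the 6 TSS positions of the gene. Nothing else in its 54 kb locus was enriched, and the covered share of 7.04% was above that of 51.9% of protein-coding genes.

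Ifngr2, the chain that brings Jak2 to the complex (chromosome 16, 91547317 to 91565414, plus strand), had 8 regions, a number reached or exceeded at 7.73% of protein-coding genes. None of them covered a TSS. A single 200 bp bin ended 517 bp upstream of the first TSS and a region of 3.6 kb in intron 1 began 684 bp downstream, so the start site lay in a gap with enrichment on both sides. A region of 1.2 kb lay in intron 2. Further upstream, regions of 0.2, 1 and 0.6 kb lay between -13.9 and -5.12 kb, all 3 closest to the start of Gm7860, an annotated pseudogene. The remaining 2 regions, 27.3 to 32.5 kb downstream of the first TSS, overlapped Tmem50b, the neighbouring gene on the opposite strand. Of the body of Ifngr2 26.5% was covered, and 4 of its 8 regions lay upstream of it.

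Il1r1, the signalling receptor of Il-1 (chromosome 1, 40281925 to 40373043, plus strand), carried the most enrichment of the 8. Its 12 regions spanned 99.6 kb (40275801 to 40375400), of which 70.2 kb (70.5%) was covered. The gaps between them ran from 800 bp to 9.2 kb with a median of 1600 bp. The 12 regions together made up 59.9% of the covered length at all 8 genes. A covered share as high as the 61.1% of the Il1r1 locus was found at 87 protein-coding genes (0.389%), and 12 or more regions at 3.22%.

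Most of the Il1r1 domain lay in the first part of the gene. A region of 19.4 kb ran from -6124 to 13275 bp relative to the first TSS, and 244 of the 65709 regions (0.371%) were as wide or wider. Another of 22 kb, 45.1 to 67.1 kb after the TSS, took in exon 2, and 167 regions (0.254%) were as wide or wider. These 2 regions made up 59% of the covered length of Il1r1. Between them lay regions of 5.4, 2.4, 5.4 and 6.4 kb and 1 single bin. Intron 1, which is 56.9 kb long, was covered over 78.9% of its length and intron 2, at 10.8 kb, over 91.1%. Intron 8, at 7.86 kb, was covered over 1.65%. A second TSS within intron 1, 41506 bp after the first, was not in a region and lay 231 bp from the nearest. At the 3′ end a region of 5.2 kb began within exon 11 and ended beyond the gene.

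Il1rap, the shared accessory chain (chromosome 16, 26581790 to 26730203, plus strand), is the longest of the 8 genes and had the lowest covered share of its locus. Within 20 kb of the first TSS alone, 6% was covered, above the 4% of Tnfrsf1b and the 5.03% of Il1r2. A region of 2.4 kb covered 4 of its 7 TSS positions, from -989 to 1410 bp relative to the first. The others were 1 of 1.2 kb in intron 1, 28.2 kb after the TSS, and 1 of 0.6 kb in intron 8, 124 kb after it. Together they covered 4.2 kb of a 185 kb locus. Among the 1248 protein-coding genes whose locus is at least as long, the median was 9 regions and 3.95% covered, against 3 regions and 2.27% at Il1rap.

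The decoy and the antagonist had no region over a TSS. Il1r2 (chromosome 1, 40141613 to 40182064, plus strand) had 4 regions of 1.4, 4.4, 0.8 and 2.2 kb, all downstream of its start and within the gene, covering 21.8% of its body. The first, in intron 1, covered the start of Gm16894, an antisense non-coding transcript that runs across the Il1r2 start site. All 4 regions were closer to the Gm16894 start than to that of Il1r2. Il1rn (chromosome 2, 24192373 to 24207014, plus strand) had 1 intronic region of 1.8 kb, 1 of 1.6 kb over its 3′ end and 1 of 0.8 kb downstream of the gene. The intronic region lay between the upstream TSS cluster and a downstream cluster 8435 to 8495 bp after the first TSS, and was 2008 bp from the latter.

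The TNF receptors also differed. Tnfrsf1a, the death-domain receptor (chromosome 6, 125299380 to 125312502, plus strand), had a region of 8.8 kb from -579 to 8220 bp relative to its first TSS, which covered 5 of its 7 TSS positions. Regions as wide or wider were 2.88% of the list. It covered 62.6% of the gene body, the second-highest share of the 8 after the 67.7% of Il1r1. The other 3 regions of this locus overlapped neighbours. One of 2.2 kb, at -5379 to -3180 bp, overlapped the 3′ end of Scnn1a, which encodes a sodium channel subunit, and those of 1.2 and 2.4 kb downstream overlapped Plekhg6, the latter at its TSS. Tnfrsf1b (chromosome 4, 144803366 to 144836773, minus strand) had 1 region of 1.6 kb, from -427 to 1172 bp relative to its TSS, and nothing in the rest of its 33.4 kb body, of which 3.51% was covered.

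**Figure D4:**
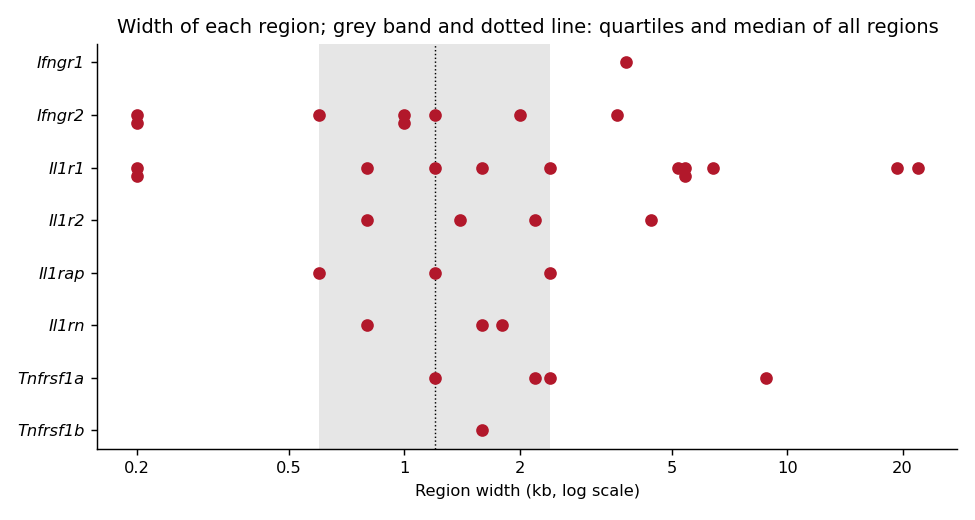
Width of each of the 36 regions in kb on a logarithmic x axis, by gene on the y axis; the grey band marks the quartiles (0.6 and 2.4 kb) of all 65709 regions and the dotted line their median (1.2 kb). Points of equal width within a gene are offset. The 19.4 and 22 kb regions of Il1r1 and the 8.8 kb region of Tnfrsf1a are the widest, and the 4 single bins belong to Ifngr2 and Il1r1.

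The regions ranged from single bins to broad domains. The median width at the 8 genes was 1600 bp, with a range of 200 to 22000 bp, beside 1200 bp (quartiles 600 and 2400 bp) over the whole list. Those over 10 kb numbered 2 of 36, both at Il1r1, beside 2.01% of all regions. Single 200 bp bins, the smallest call the list can hold, numbered 4 of 36 (11.1%), beside 2.95% of all regions. Of the 36, 5 lay over a TSS of their gene, 13 were intronic, 8 exonic, 5 in another gene and 5 outside annotated genes. By midpoint, 24 were closest to a TSS of the gene they were counted for and 12 to that of another gene, namely all 4 of Il1r2, the last 4 of Il1r1, which were closest to Il1rl2, the 3 farthest upstream of Ifngr2 and 1 of Tnfrsf1a at the Plekhg6 TSS.

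The Il-1 receptor genes lie in a row on chromosome 1, and the covered share was uneven along it. Il1r2 was covered over 21.8% of its body, the 99.9 kb between Il1r2 and Il1r1 over 14.5% by 5 regions, and Il1r1 over 67.7%. The 8.43 kb from Il1r1 to Il1rl2, a receptor of the Il-36 cytokines, was covered over 35.9%, and Il1rl2 over 6.68% with its TSS in a region. Il1rl1, the Il-33 receptor, and Il18r1, a chain of the Il-18 receptor, had 0 regions in their bodies and 0 by the rule. The nearest region lay 49015 bp from the TSS of Il1rl1 and 62404 bp from that of Il18r1. Il18rap, the other Il-18 receptor chain, was covered over 8.8% by 3 regions.

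Ifngr2 lies in a second such row on chromosome 16, with the chains of the type I interferon and Il-10 receptors. The bodies of Ifnar2, Il10rb and Ifnar1 were covered over 10.3%, 18.3% and 6.31%, beside 26.5% for Ifngr2. Beyond it, Tmem50b was covered over 44%. The stretch between Ifnar1 and Ifngr2, 39.6 kb long, held 5 regions over 8.07% of its length. Elsewhere, Il22ra2, a decoy receptor of Il-22 that lies 11.8 kb from Ifngr1, had 1 region. Tnfrsf8, 20.3 kb from Tnfrsf1b, had 0, and its nearest region was 67867 bp from its TSS. Ltbr, the lymphotoxin β receptor, which lies 35.5 kb from Tnfrsf1a, had its TSS in a region.

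The other genes of these pathways were counted by the same rule. Of the ligands Ifng, Il1a, Il1b and Tnf, 0 of 4 had the first TSS in a region. Ifng had no region by the rule, the nearest being 116898 bp from its TSS. Il1a and Il1b had 1 region each, with another TSS of Il1b covered, and Tnf had 3, the nearest 2752 bp from its TSS. Of the genes that carry or restrain the IFNγ signal, Jak1 had 12 regions, Jak2 6, Irf1 5 and Socs1 3, each with its first TSS outside them, although another TSS of Irf1 was covered. The covered share of the locus was 53.9% at Irf1, 37.7% at Jak1, 35.5% at Socs1 and 14% at Jak2. In the Il-1 signalling list 3 of 8 had the first TSS covered, close to the 31.1% of all protein-coding genes, and 7 of 8 any TSS, beside 39.1%, with medians of 4 regions and 12.1%. In the TNF signalling list 5 of 7 had the first TSS covered, beside the same 31.1%, with medians of 3 regions and 23.6%. All genes of both signalling lists had at least 1 region, beside 76.4% of all protein-coding genes.

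Coverage of the related receptor families was also uneven. Over all protein-coding genes 31.1% had the first TSS covered, with medians of 2 regions and 6.5%. The other Il-1 receptor family genes (Il1rl1, Il1rl2, Il18r1 and Il18rap) had 1 of 4 first TSS covered and a median of 1.5 regions and 2.41%. The other class 2 cytokine receptors had 3 of 6, with medians of 2 regions and 5.5%. The other TNF receptor superfamily genes had 5 of 8, the same count as the receptor and antagonist genes, with medians of 2.5 regions and 12.2%. These lists hold 4 to 8 genes and are given as counts.

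**Figure D5:**
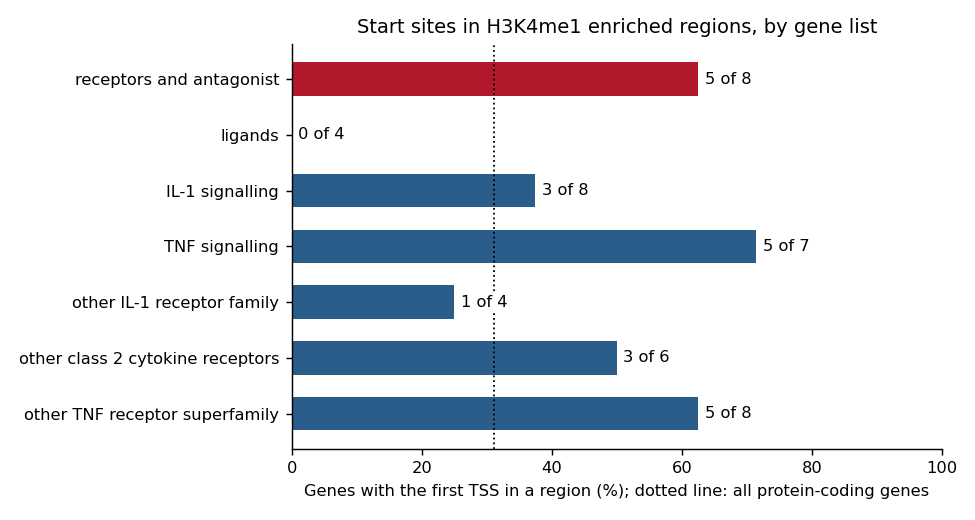
Percent of genes with the first TSS in an enriched region on the x axis, for the 8 receptor and antagonist genes (red) and 6 of the 7 pathway lists (blue; the IFNγ signalling list is not drawn); the number of genes is printed at each bar, and the dotted line marks the 31.1% of all protein-coding genes. The bars run from 0 of 4 for the ligands to 5 of 7 for TNF signalling.

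Islets contain cells other than β-cells, and the list does not say in which cells a region was marked. The share of cells that carry the mark and the level of the mark in each cell cannot be told apart. Over all protein-coding genes, 31.1% had the first TSS covered and 23.6% had no region, with medians of 2 regions and 6.5%. The marker lists below are short and are given as counts beside these values. All 6 β-cell marker genes (Ins1, Ins2, Pdx1, Mafa, Nkx6-1 and Slc2a2) had regions, with a median of 3 regions and 27.8% of the locus covered, although only Slc2a2 had its first TSS in a region. Of 4 α- and δ-cell markers 0 had a covered first TSS, and the median was 1 region and 4.5%, from 0 regions at Gcg to 3 over 11.4% of the locus at Hhex. Of 7 leukocyte markers 1 (Cd68) had a covered first TSS, the median was 1 region and 1.29%, and Emr1, Itgam and Cd3e had 0 regions. Of 5 endothelial and stromal markers 2 (Pecam1 and Kdr) had a covered first TSS, the median was 1 region and 2.44%, and Cdh5 and Pdgfrb had 0 regions, whereas Pecam1 had 8 over 24.1% of its locus. Of 4 acinar and duct markers 1 (Krt19) had a covered first TSS, with medians of 1.5 regions and 6.38%. The part of these other cells in the regions at the receptor genes was not tested.

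The CpG content of the promoters did not sort the 8 genes by coverage. Over all protein-coding genes, those with an observed-to-expected CpG ratio of 0.6 or more in the 1000 bp centred on the first TSS had that TSS in a region in 44% of 10196 genes (95% exact binomial interval 43 to 45%), and those with a lower ratio in 20.3% of 12154 (19.6 to 21%). Such intervals cover counting error only. Of the 8, Ifngr2 (ratio 0.77), Il1rap (0.675) and Ifngr1 (0.613) were at or above 0.6, and of these Il1rap and Ifngr1 were covered. Below it, Tnfrsf1b (0.529), Tnfrsf1a (0.405) and Il1r1 (0.319) were covered, and Il1rn (0.114) and Il1r2 (0.112) were not. The uncovered genes therefore include the one with the highest ratio and the 2 with the lowest. The first TSS of Tnfrsf1a belongs to a transcript not annotated as protein-coding. Its first protein-coding start lies 89 bp downstream, outside the promoter span searched for motifs below.

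Motifs of the factors that these cytokines act through were searched on both strands in the 1000 bp around each region's midpoint. They were the κB consensus, the GAS element TTCNNNGAA of IFNγ-responsive genes, the IRF element GAAANNGAA and the AP-1 element TGANTCA. A κB match was held by 14 of the 36 windows (38.9%, exact interval 23.1 to 56.5%), beside 16.7% of the 65650 windows of all regions on chromosomes 1 to 19 and X. With windows of 400 bp the κB share was 13.9% (5 of 36, exact interval 4.67 to 29.5%), beside 7.26% of all windows. The other motifs were nearer to the whole list. GAS was held by 33.3% (18.6 to 51%) beside 28.7%, the IRF element by 36.1% (20.8 to 53.8%) beside 30.6% and AP-1 by 27.8% (14.2 to 45.2%) beside 31.3%. The windows of one gene share their surroundings, so they are not independent of each other. The intervals treat them as independent and therefore cannot decide whether a share differs from that of the whole list. The κB windows were 6 at Il1r1 and 2 each at Ifngr2, Il1r2, Il1rap and Tnfrsf1a, with 0 at Ifngr1, Il1rn and Tnfrsf1b. Median GC content was 45.5% in the windows at the 8 genes and 45.4% in all windows.

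Over the whole length of the regions, the 8 genes held 33 κB sites, or 0.282 per kb, beside 0.192 per kb in all regions. Il1r1 held 16 of them but, over its long domain, only 0.228 per kb, and Tnfrsf1a held 7, or 0.479 per kb. Ifngr1 held 2, or 0.526 per kb, the highest density of the 8, with both sites outside its midpoint window. Il1rn and Tnfrsf1b held 0. The density of GAS was 0.435 per kb beside 0.332 in all regions and that of the IRF element 0.444 beside 0.359, so these were also above the whole list, whereas AP-1 was below it at 0.273 beside 0.366. A match is a string of letters and does not show that a factor was bound.

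At the promoters, taken as 250 bases before to 50 after each first TSS, the same motifs were counted at each gene, and so few genes allow no reading of a share. A κB match lay at 1 of 8 genes (Ifngr2, beside 8.89% of all protein-coding genes), a GAS match at 1 (Tnfrsf1b, beside 7.94%), an IRF element at 2 (Il1rap and Tnfrsf1b, beside 8.93%) and an AP-1 match at 1 (Il1rn, beside 6.93%). Those of Il1rap and Tnfrsf1b lay in regions and those of Ifngr2 and Il1rn did not. Tnfrsf1b was the only one of the 8 with both elements of the IFNγ response. Its 200 bases upstream of the TSS (chr4:144836774-144836973, minus strand) are therefore shown with both matches in capitals. The GAS match lies at -181 to -173 bp and the IRF match at -9 to -1 bp. The IRF match reads GAAAGCGAA on the opposite strand, so its capitals show the reverse complement.
Tnfrsf1b: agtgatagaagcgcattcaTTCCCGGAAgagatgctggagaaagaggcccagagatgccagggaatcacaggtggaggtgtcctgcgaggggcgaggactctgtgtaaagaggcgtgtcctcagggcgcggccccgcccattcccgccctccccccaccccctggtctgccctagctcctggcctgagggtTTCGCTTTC

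One κB word, GGGACTTTCC, occurred at 3 of the 8 genes and is shown in capitals within 40 bases of its surroundings, on the strand that reads as the word. It lay at -88 to -79 bp of the Ifngr2 TSS (chr16:91547214-91547253, minus strand), outside any region. At Il1r2 it lay in intron 1, centred 432 bp after the TSS (chr1:40142026-40142065, plus strand), in the first region of the gene. At Il1r1 it lay in intron 1, centred 16490 bp after the TSS (chr1:40298396-40298435, minus strand), in the second region. The word was chosen after its matches were seen. In the 1000 bp windows it occurred in 1 of the 36 at the 8 genes, since the Il1r2 match lay outside its window, and in 250 of the 65650 of all regions (0.381%). In the promoters it occurred in 1 of the 8 and in 33 of all 22350 (0.148%).
Ifngr2 promoter: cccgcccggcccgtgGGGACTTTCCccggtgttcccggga
Il1r2 intron 1: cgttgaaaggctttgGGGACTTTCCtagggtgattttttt
Il1r1 intron 1: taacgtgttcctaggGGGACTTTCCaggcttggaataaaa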

How the data were processed

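H3K4me1 ChIP-seq was performed by the authors on islets of mice exposed to the cytokines, and DNA of several ChIP experiments was pooled for 1 library. The labels give the mice as CD1 and the methods as ICR. The authors mapped the reads to NCBI37/mm9 with bowtie2 (2.2.1 in the submitters' processing notes) and called regions with ChromHMM, whose version and settings are not given in the sources used here. The deposited file holds the positions of the regions on a 200 bp grid and no counts, scores or p-values, so depth is unknown and a missing region can reflect depth or threshold. Whether the list precedes the merging and filtering that the methods describe is not given in the sources used here.

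Starts were shifted to count from 1. Genes and TSS came from GENCODE M1 and sequences from NCBIM37, the same build as the regions. No test was run, since 1 library allows none. All 8 genes are named, and other genes where they adjoin them, are overlapped by or closest to their regions, or belong to a list of 5 or fewer. The exceptions, chosen after their values were seen, are the marker genes named, the κB word, the genes whose upstream sequences are printed and the comparisons among long loci. A gene of the IFNγ signalling list, and the counts over that list, are not reported here. The genes and lists were chosen with earlier results of these data known. Each step was tested on simulated data. Alternatives were other width filters, merging, distances, TSS sets, assignments and motif windows. Scripts ran in Python 3.11.15 with pandas 2.3.3, numpy 2.4.6, matplotlib 3.10.9 and scipy 1.17.1.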

Additional observations from a re-analysis of the deposited data

How the results depend on the processing

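Of 174 alternative values for 34 results, 154 stayed within 1.5 times the reported value. The summaries that moved further were those under another distance, without the gene body and with smaller motif windows. The median number of regions per gene was 5.5 within 50 kb of any TSS and 2 within 20 kb of the first TSS without the gene body, and under the latter the 36 regions became 19. In windows of 400 bp the share of regions with a match was 13.9% for κB, 16.7% for GAS, 16.7% for the IRF element and 8.33% for AP-1, beside 7.26%, 12.6%, 13.6% and 14.8% of all regions. The remaining 13 that moved concern single genes: by the closest TSS within 100 kb, Ifngr1 had 4 regions in place of 1, Ifngr2 5 in place of 8 and Il1r2 1 in place of 4. Within 20 kb of the first TSS without the gene body, Il1r1 had 2 in place of 12, Il1r2 2 in place of 4 and Il1rap 1 in place of 3, and the covered share was 5.03% in place of 14.6% at Il1r2 and 6% in place of 2.27% at Il1rap. Within 50 kb of any TSS, Il1rn had 8 in place of 3, Ifngr1 3 in place of 1 and Tnfrsf1b 2 in place of 1. Ifngr2 had 5 with regions of at least 1000 bp alone and 4 within 10 kb of any TSS, in place of 8. The number of genes with the first TSS in a region ran from 5 to 7, with 7 where a region within 1000 bp counted. No paired analysis was possible because the design holds a single library, and for the same reason no replicate could be left out. The depth behind the list is unknown, so an uncovered start site is not shown to lack the mark.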

Other observations

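Genes with a locus as long as that of Il1r1 or longer numbered 2771, and among these 12 had a covered share at or above 61.1%. Ifngr2 was the only one of the 8 receptor and antagonist genes whose uncovered first TSS had regions within 2 kb on both sides. This arrangement was found at 2213 protein-coding genes (9.9%). Among all regions, windows with a κB match had a median GC content of 48.9%, beside 45.4% for all windows, whereas the 14 with a match at the 8 genes had 45.2%. These values were looked for after the others had been seen.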
